A study of Paralichthys olivaceus with 6 samples.

Results

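In the gonads of 6 double haploid (DH) Japanese flounder sisters, 200 of 52474 unigenes were selected because their counts fell into a high and a low set of fish other than the sterile and the fertile one. A unigene is one assembled sequence that stands for a transcript. The members were chosen by their measured levels in these same libraries. Counts were divided by the column total to give CPM (counts scaled to a common library size), and 23529 unigenes had a mean of 2 CPM or more. Of these, 212 were left out because the study's list of differentially expressed unigenes gives them a gene symbol, which left 23317. For each, log2(CPM + 0.5) was sorted over the 6 libraries and the widest gap between neighbours that left at least 2 libraries on each side was taken. Another 2328 unigenes (9.98%) were dropped because this gap parted the sterile from the fertile libraries, and the 200 unigenes with the widest gaps among the other 20989 are called split unigenes here. Their gaps, levels and partitions are therefore descriptions and carry no test.

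The libraries came from gonads of 3 sterile and 3 fertile DH females, all 5 years old and all offspring of a single wild mother. The labels place the sterile gonads at stage III and the fertile gonads at stage V, so fertility and ovarian stage cannot be told apart. Each library is taken as 1 fish, although the protocol also speaks of pooled RNA, and differences between libraries include any technical difference between preparations. The sterile libraries are called S1, S4 and S5 and the fertile ones F1, F2 and F3, after the columns of the count table.

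In mitogynogenesis, the method that gives DH fish, the chromosome set of an egg is duplicated, so that both copies of every locus are the same. Sisters from an outbred mother can therefore carry different maternal alleles while each is homozygous. In an assembly made without a genome, alleles, splice forms and close paralogs of a gene can end up as separate unigenes. The sources used here do not say how reads matching several such sequences were handled, so near-identical unigenes may share or divide reads.

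Total counts lay between 25024469 (S1) and 35719683 (S4), and the 10 most abundant unigenes took from 7.77% (S1) to 14.7% (S5) of them. No pair of libraries was a duplicate. S4 and S5 carry numbers that no sample title has and share a column-name ending that the other 4 libraries lack. In the labels only their letter places them in the sterile group. Their total counts were the highest of the 6 libraries, and the 2 libraries with the most clean reads in the paper are sterile ones. Over all 23317 unigenes that passed the filters, the commonest partition set S4 and S5 apart from the other 4 libraries, with 4004 unigenes (17.2%). S4 and S5 also had the lowest TMM factors (a correction of library size for composition), 0.960 and 0.910, against 1.01 to 1.05 in the others. CPM by column total leaves this correction out. The shares over all unigenes, here and below, were not recomputed with it, and its part in them was not tested. S4 and S5 also had the highest levels of 2 marker lists of other tissues. The summed level of the 5 unigenes of the exocrine pancreas list was 8.99 CPM in S4 and 11.9 CPM in S5, against 2.96 CPM in S1 and 0.654 to 1.78 CPM in the fertile libraries. That of the erythrocyte marker *ba1l*, a beta globin, was 7.33 CPM in S4 and 3.25 CPM in S5, against 0.120 CPM in S1 and 0 to 0.241 CPM in the fertile libraries. Leukocyte markers, 16 unigenes of 12 symbols, summed to 47.5 to 97.4 CPM in the sterile and 31.0 to 39.7 CPM in the fertile libraries, with none at 0 in all libraries. The 3 *mpx* (myeloperoxidase) unigenes among them ran the other way, with sums of 0.827 to 1.32 CPM in the sterile and 5.15 to 13.1 CPM in the fertile libraries. The other 13 summed to 46.6 to 96.6 CPM in the sterile and 17.9 to 34.5 CPM in the fertile libraries. The ovarian follicle markers *fshr* and *nr5a1b* summed to 6.16 to 11.3 CPM in sterile and 14.4 to 28.3 CPM in fertile gonads, and the meiotic markers *spo11* and *sycp3* to 0.236 to 0.280 CPM in sterile and 0.769 to 1.10 CPM in fertile gonads. The meiotic sums rest on few reads. Per library, *spo11* had 1 to 6 counts in sterile and 10 to 14 in fertile gonads, and *sycp3* 3 to 7 and 10 to 18. In whole gonads, fewer cells of a type and less RNA per cell cannot be told apart, and the part of these cell types in the split unigenes was not tested.

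The split unigenes were mostly on 2 levels and seldom on and off. Their gap ran from 0.86 to 4.71 on the log2(CPM + 0.5) scale with a median of 1.29, which is a 2.45-fold step between neighbouring libraries, against a median of 0.13 over all unigenes that passed the filters. It was over 2-fold in 165 of them, over 4-fold in 41 and over 8-fold in 5. In 180 of the 200 the gap was also wider than the spread of the libraries on either of its sides, and in the other 20 it was not. The mean CPM of the low libraries had a median of 23.9% of that of the high libraries and reached 46.3%. It was above 25% in 95 members, under 10% in 26 and under 1% in 2. None of the 200 had a count of 0 in every low library, 3 had a 0 in any library, and 8 had 10 counts or fewer in each low library. The highest count on the low side had a median of 125.5. The name on/off therefore fits few of them, and they are described here as split between a high and a low set. At the limit of the selection, the last 2 unigenes inside were Contig2026 and Contig13528, with gaps of 0.8621 and 0.8617, and the first 2 outside were Contig1198 and Contig11894, with 0.859 and 0.844.

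**Figure D1:**
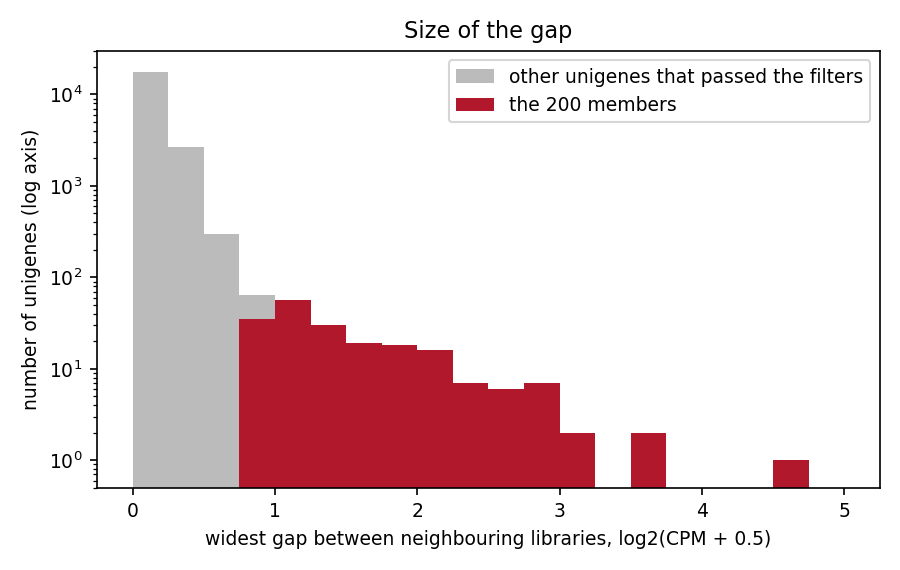
Number of unigenes (y axis, log scale) by the width of the gap in log2(CPM + 0.5) between the high and the low libraries (x axis), for all unigenes that passed the filters and, in front of them, the 200 split unigenes. Unigenes whose gap parts sterile from fertile libraries are not drawn, and the members are the thin right-hand tail that begins at 0.86.

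The widest gap belonged to c10711_g1_i3_1418_14688, a single Trinity contig with no symbol. It had 727, 1183 and 1074 counts in the sterile libraries S1, S4 and S5 and 826 in the fertile F1, against 16 in F2 and 18 in F3. In CPM these were 29.1, 33.1, 31.7 and 32.0 on the high side and 0.551 and 0.629 on the low side. The 4 high libraries lay within a narrow band that held fish of both groups, while the 2 low ones were both fertile, and the high mean was 53.3 times the low one.

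Contig18347 came next, with 925, 1066 and 992 counts in S1, S5 and F1, against 68, 53 and 49 in S4, F2 and F3. Its levels were 37.0, 31.5 and 38.4 CPM on the high side and 1.90, 1.83 and 1.71 CPM on the low side. Each side thus held sterile and fertile fish, the sides did not overlap, and the high mean was 19.6 times the low one.

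The reverse pattern was seen in c8044_g1_i3_1070_5127, which was high in S4, F2 and F3 with 800, 645 and 729 counts. In S1, S5 and F1 it had 60, 77 and 51 counts, so that the fish that were high for Contig18347 were low here. The levels were 22.4, 22.2 and 25.5 CPM in the high libraries and 2.40, 2.27 and 1.98 CPM in the low ones, a ratio of 10.5 between the means.

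The third highest mean level among the members was that of c7359_g1_i1_1591_21394, which is named here after its values were seen. It had 343 CPM in S5 and 367 CPM in F2, against 21.4 and 27.7 CPM in S1 and S4 and 25.4 and 25.3 CPM in F1 and F3. The high mean was 14.2 times the low one, and the high libraries were again 1 sterile and 1 fertile fish. Over all 200 the mean level ran from 2.01 to 429 CPM with a median of 9.87 CPM, against 13.6 CPM over all unigenes that passed the filters.

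The members nearest to an on/off pattern were few. c11885_g1_i1_850_11345 had 82 and 151 counts in S1 and S4 and 134 and 148 in F2 and F3, against 1 count in S5 and 0 in F1. c14701_g1_i3_875_7215, named after its values were seen, had 97 and 124 counts in S1 and S4 and 155 and 157 in F2 and F3, against 2 in S5 and 0 in F1. Both were low in the same 2 sisters, 1 of each group, and since their CPM + 0.5 lay within 1.19-fold in every library, they may count the same reads. c11896_g1_i1_463_6443, also named after its values were seen, had 0 counts in S1 and 4 in S5, against 96 in S4 and 56, 97 and 147 in F1, F2 and F3. Contig13181, named likewise, had 3 counts in each of S1 and S4, against 228 in S5 and 96, 93 and 106 in F1, F2 and F3. A fold is not given for these because the low sides rest on so few counts.

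**Figure D2:**
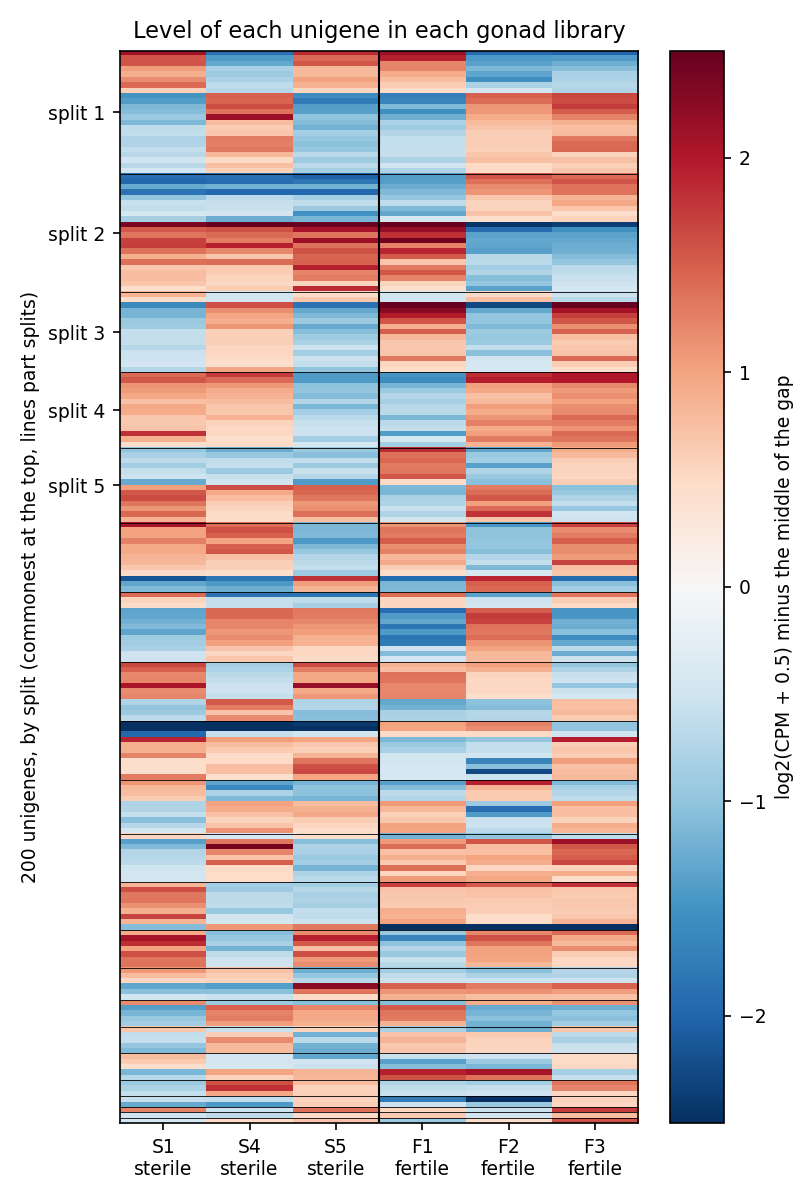
Level of the 200 split unigenes (rows, grouped by partition with the commonest at the top) in the 6 libraries (columns, sterile left of fertile), coloured by log2(CPM + 0.5) minus the middle of each unigene's gap, with the scale clipped at 2.5 in both directions. Blocks of rows with the same colours are unigenes that divide the fish in the same way, and both a pattern and its mirror image occur for many partitions.

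Leaving fertility aside, 6 libraries can be parted into sides of 2 and 4 or 3 and 3 in 24 ways, and the split unigenes used 22 of them. In 65 members the sides held 3 libraries each and in 135 they held 2 and 4, with 40 members high in the 2 and 95 high in the 4. The 5 commonest partitions held 88 members (44%). In 15 partitions, members high on the one side and members high on the other were both present.

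The commonest partition set S1, S5 and F1 against S4, F2 and F3, with 23 members (11.5%), against 322 (1.38%) of all unigenes that passed the filters. In 8 of them S1, S5 and F1 were high, among them Contig18347, and in 15 S4, F2 and F3 were high, among them c8044_g1_i3_1070_5127. The median gap was 1.54. With members whose names link them counted once, as described further on, 18 remained on this partition and 18 on the next one, so it no longer led. With unigenes that have a symbol kept, it held 23 at or above the gap limit. The partition of F2 and F3 from the rest then held 33 and that by fertility 46. Leaving out a library merges partitions, and 200 unigenes were then chosen anew from the other libraries. On what remained of this partition there were 52 of them without F1, 51 without S4 and 47 without F2. Without S1 there were 39, without S5 31 and without F3 29.

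The next partition set F2 and F3 against the other 4 libraries, with 22 members (11%), against 1114 (4.78%) of all unigenes that passed the filters. S1, S4, S5 and F1 were high in 13 of these, led by c10711_g1_i3_1418_14688, and F2 and F3 in 9. Of the members high in F2 and F3, c10934_g1_i1_1211_6100 had the widest gap, with 317 and 273 counts in F2 and F3, against 13, 20 and 15 in S1, S4 and S5 and 25 in F1. The high levels were 10.9 and 9.54 CPM and the low ones lay between 0.443 and 0.968 CPM, so that the means differed 16.4-fold. All high fish were fertile and F1 was on the side of the sterile fish, so such members miss the partition by fertility through 1 fish. In c10934_g1_i1_1211_6100 F1 still lay above every sterile library, with 0.968 CPM against 0.443 to 0.560 CPM.

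In 15 members (7.5%), against 879 (3.77%) of all unigenes that passed the filters, the sides were S1, S5 and F2 against S4, F1 and F3. S4, F1 and F3 were high in 13 of the 15. The widest gap among these was that of Contig9305, with 898 counts in S4 and 1509 and 1711 in F1 and F3, against 57 and 63 in S1 and S5 and 36 in F2. Its high levels of 25.1, 58.5 and 59.8 CPM were not even, and the low ones were 2.28, 1.86 and 1.24 CPM, so the means differed 26.7-fold. Among the 2 members high in S1, S5 and F2, Contig9204 had 60.0, 45.3 and 45.4 CPM there, against 22.9, 23.4 and 22.3 CPM in S4, F1 and F3. That is a step of 2.19-fold between the means, with little spread on the low side.

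S5 and F1 stood apart from the other 4 libraries in 14 members (7%), against 333 (1.43%) of all unigenes that passed the filters. Among the 14 were c11885_g1_i1_850_11345 and c14701_g1_i3_875_7215, and in all of them S5 and F1 were the low pair. F1 and F3 stood apart in another 14 (7%), against 1199 (5.14%), and were high in 7 and low in 7. Contig1293 was high in them, with 954 and 547 counts, against 117, 137 and 166 in S1, S4 and S5 and 106 in F2. Contig28647 was low in them, with 513, 1114 and 955 counts in S1, S4 and S5 and 722 in F2, against 109 and 129 in F1 and F3. The ratio of the means was 6.57 for Contig1293 and 6.0 for Contig28647.

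**Figure D3:**
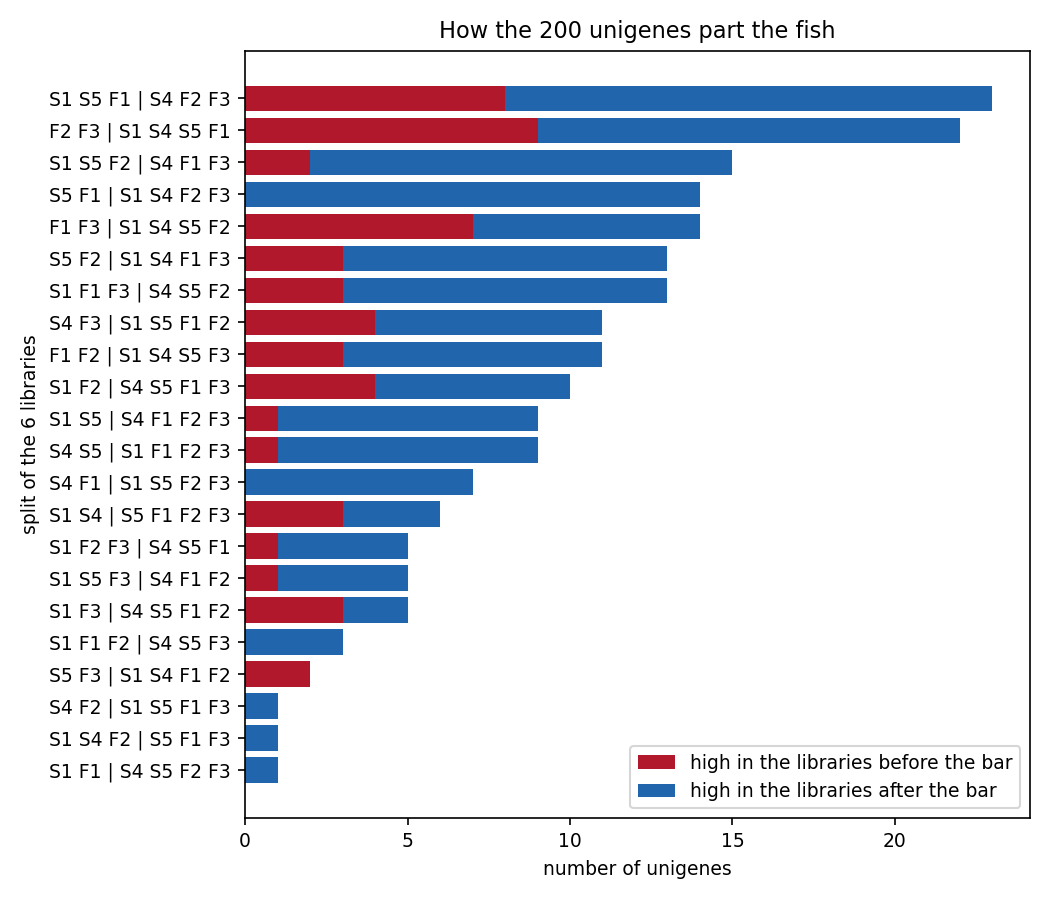
Number of split unigenes on each partition of the fish (rows, commonest at the top), divided by which side is high. The partition of S1, S5 and F1 from S4, F2 and F3 leads with 23 members, followed by that of F2 and F3 from the rest with 22.

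The partition of S4 and S5 from the rest, which was the commonest over all unigenes, held 9 split unigenes (4.50%). With the partition by fertility left out, its share was 34.7% of the 2639 unigenes with a gap of 0.25 to 0.5, 14.9% of the 363 with a gap from 0.5 to the limit, and 17.0% of the 17787 with a gap under 0.25. The partition of S1, S5 and F1 from S4, F2 and F3 took 0.947%, 3.58% and 1.47% of the same classes. In 8 of the 9 members S4 and S5 were low. Contig10749, named after its values were seen, had 24.9 and 22.5 CPM in S4 and S5, against 99.5 CPM in S1 and 64.1, 65.2 and 63.2 CPM in F1, F2 and F3. Contig26546, named likewise, was the only member high in S4 and S5, with 519 and 582 counts, against 71 in S1 and 15, 2 and 4 in F1, F2 and F3. S1 also lay above F1, F2 and F3, so the order of the fish followed fertility in this member. Other members also had all sterile libraries above or below all fertile ones, and how many was not counted. Contig10642, on the same partition, had 0.560 to 2.92 CPM in the sterile and 4.99 to 6.29 CPM in the fertile libraries. For c18894_g1_i1_901_8432 these were 0.0799 to 1.15 CPM and 5.21 to 25.2 CPM. For Contig13528 they were 14.1 to 27.7 CPM and 8.21 to 12.2 CPM. Contig26546 shared its high side with the pancreas and erythrocyte markers, and the part of those tissues in its level was not tested. The partition of sterile from fertile, counted in the same way before it was dropped, held 7 of the 207 unigenes at or above the limit (3.38%), and 46 of 291 when unigenes with a symbol were kept. The symbols come from the study's list, which was selected on the sterile against fertile contrast of these fish.

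No library was high or low throughout. F3 was on the high side in 128 members, S4 in 126, F2 in 108, S1 and F1 in 101 each and S5 in 91. These shares were not counted over all unigenes that passed the filters. For single Trinity contigs that passed, described by block further on, S5 was high for 20.2% to 39.6% and F1 for 64.4% to 79.6%. The other libraries are given there. Of the 15 pairs of libraries, S1 and S5 were most often on the same side, in 118 of 200 members (59.0%), against 40.9% of the 20989 unigenes that passed the filters and were not parted by fertility. S4 and F3 followed with 110 (55.0%), against 41.1%, although they are a sterile and a fertile fish. S5 and F3 were least often together, in 47 members (23.5%), against 30.2%, and F1 and F2, which are both fertile, in 61 (30.5%), against 50.2%. S4 and S5 shared a side in 93 members (46.5%), against 55.0%, and in 61 of the 200 unigenes chosen anew without F2. Pairs within the sterile group shared a side in 83 to 118 members, pairs within the fertile group in 61 to 96 and pairs of a sterile and a fertile fish in 47 to 110, so these ranges overlapped. The pairs are not independent, because every member places all 6 libraries at once.

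**Figure D4:**
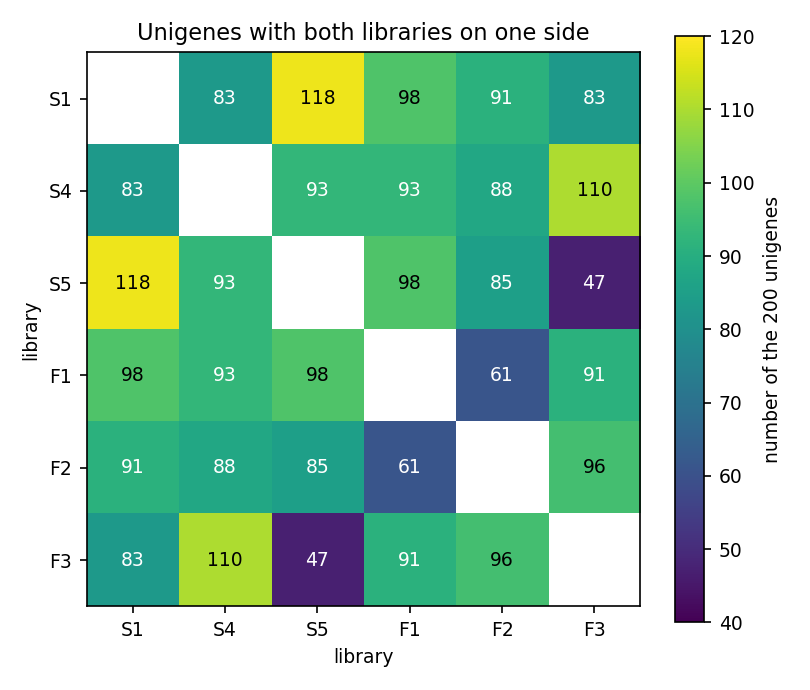
Number of the 200 split unigenes for which the 2 libraries of each of the 15 pairs (rows and columns) lie on the same side of the gap. S1 and S5 are together in 118 members and S5 and F3 in 47.

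Several members could be linked by their names, though whether their sequences are related was not analysed. The CAP3 program, which merges overlapping contigs, numbers its contigs, and Trinity names give the component that a contig belongs to. Members with CAP3 numbers at most 2 apart on the same partition, or of 1 Trinity component, were linked, a rule chosen after seeing the data. This gave 176 groups, of which 19 had 2 or 3 members and held 43 in all. Of the 19, 17 held members high in the same fish. For CAP3 contigs the linking rule required the same partition, though not the same high side. It thereby left out 3 pairs of members with such numbers on different partitions. For contigs of 1 Trinity component it required neither. Contig18697, Contig18698 and Contig18699, named after their values were seen, had 17.5, 7.73 and 8.57 CPM in S4, 15.7, 6.20 and 7.62 CPM in S5 and 21.8, 9.13 and 9.19 CPM in F2. In S1, F1 and F3 the 3 contigs lay between 0.542 and 2.20 CPM. In 16 pairs of members, CPM + 0.5 lay within 1.2-fold in every library, and 12 of these pairs were outside the linked groups. Contig10749 and c12318_g1_i3_8984_14979 differed by at most 1.04-fold on that scale and may be counts of the same reads.

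In 2 linked groups the members were mirror images. Contig18346, next in number to Contig18347, had 193, 267 and 255 counts in S1, S5 and F1 and 1082, 889 and 926 in S4, F2 and F3, so it was high in the fish in which Contig18347 was low. Its highest and lowest CPM differed 4.20-fold and those of Contig18347 22.4-fold. The sum of both lay between 32.2 CPM in S4 and 48.3 CPM in F1, a range of 1.5-fold.

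The other mirrored group was Contig27467, with 196, 233 and 148 counts in S1, S5 and F1 and 57, 22 and 47 in S4, F2 and F3, and Contig27466, with 90, 92 and 75 counts in the first 3 libraries and 285, 217 and 247 in the others. Taken singly they ranged 10.3-fold and 3.18-fold, and their sum lay between 8.23 and 11.4 CPM, a range of 1.39-fold. Both groups were picked as mirror images on these same values, so the narrower range of the sums largely follows from that choice. Whether the sequences of each pair are similar was not analysed here.

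**Figure D5:**
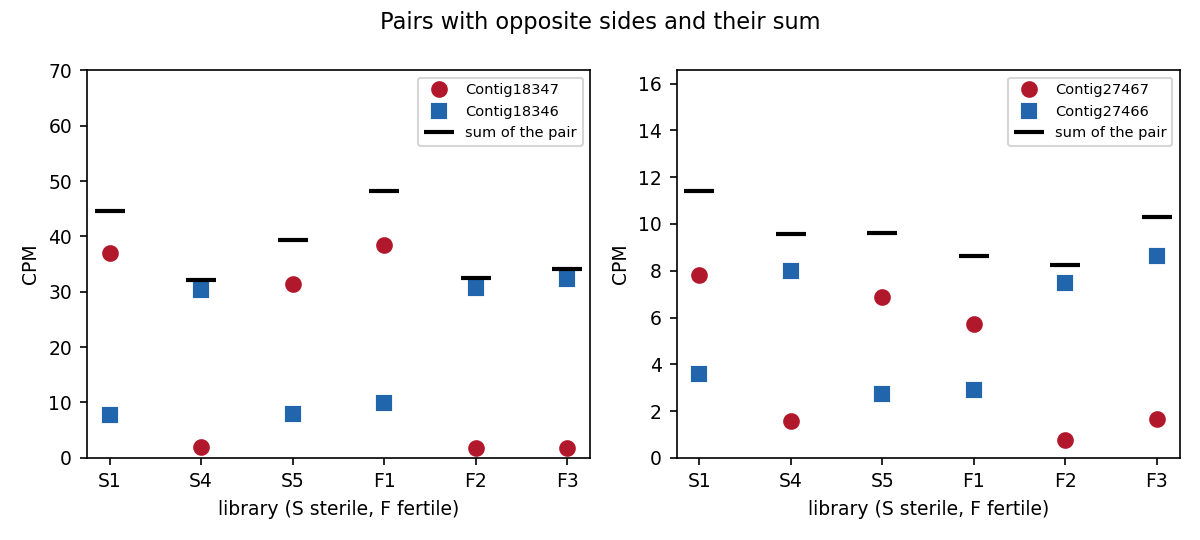
CPM in each library (sterile left of fertile) of the 2 mirrored pairs of split unigenes and of their sums. In both pairs 1 unigene is high in S1, S5 and F1 and the other in S4, F2 and F3, and the sums range 1.5-fold and 1.39-fold over the 6 libraries.

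Among members with a CAP3 number, 125 had another unigene with a mean of 2 CPM or more at most 2 numbers away. For 32 of these (25.6%) such a neighbour had the same partition with the same side high, and for 11 (8.80%) it had the same partition with the other side high. At a distance of 20 or 21 numbers these were 6 (4.72%) and 5 (3.94%) of 127. Over all CAP3 contigs that passed the filters and were not parted by fertility, 19.8% had a neighbour with the same side high and 4.18% a mirrored one at a distance of at most 2, and 14.7% and 4.16% at 20 or 21. Near neighbours in number were thus more often high in the same fish than far ones, among the members and among all contigs, while a mirrored neighbour was as frequent near as far over all contigs. These shares were not tested.

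Single Trinity contigs, which CAP3 had not merged with another contig, made up 67 of the 200 split unigenes (33.5%), against 4006 (17.2%) of all that passed the filters. The remaining 133 were CAP3 contigs. Read from the fourth field of the name, the length of the single contigs had a median of 1559 bases among the members and 2407 among all that passed the filters. The running number at the end of these names falls into 6 blocks, which are not assigned to libraries by any label and were seen only after the data were examined. In block 1, F1 was high in 8 of the 9 members, in block 2 F2 in 18 of 18, and in block 3 F3 in 14 of 14. S1 was high in 14 of the 16 members of block 4, S4 in 5 of 5 of block 5 and S5 in 5 of 5 of block 6. In all, 64 of the 67 members were high in the library most often high among the members of their block, and that library was a different one in each block. The library was picked on these same members, which raises the count of 64. Blocks 5 and 6 hold few members, and in block 5 F3 was also high in 4 of 5. Among all single contigs that passed the filters and were not parted by fertility, S5 was on the high side for 39.6% of block 6 and 20.2% to 23.2% of the other blocks, and F3 for 80.5% of block 3 and 63.8% to 67.4% of the others. F1 was high for 79.6% of block 1 and 64.4% to 66.3% of the others. F2 was high for 65.1% of block 2 and 40.9% to 47.0% of the others. For S1 these shares were 73.8% of block 4 and 52.3% to 55.0%, and for S4 66.1% of block 5 and 40.6% to 45.6%. Each library was thus high more often in the block where it led the members than in any other block. Within a block, the library with the highest share was not a different one each time, since F1 led blocks 1, 2 and 6 and F3 blocks 3 and 5. In block 6, S5 was high for 39.6%, against 65.8% for F1. What the blocks stand for was not tested.

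No function can be given for the split unigenes from the sources used here. Unigenes with a symbol in the study's list were left out by the rule. The 200 identifiers are names given by the assembly, so a lookup in a reference gene table could not find them. The paper reports matches to zebrafish, mouse and human transcripts for most of its unigenes, but no match was at hand for the members. The list of unigenes that the study called different between sterile and fertile fish holds 17 of the 200 (8.5%), without a symbol. Of all that passed the filters it holds 48 (0.206%). The list and the members were both chosen by differences between these same libraries, so nothing is read from these shares. Among the 17 listed members are c10711_g1_i3_1418_14688, c10934_g1_i1_1211_6100, Contig28647 and Contig26546. No sequence of a unigene was at hand, so none is shown.

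In the comparison of sterile with fertile gonads, edgeR's quasi-likelihood test called 49 of 35787 unigenes (0.137%) when a fold above 2 and an adjusted *p* under 0.05 were both required. All 200 split unigenes were tested and 0 were called. limma-voom also called 0 of them, against 0.0671% of all unigenes. DESeq2 called 9 of the 183 that had an adjusted *p*, against 0.932% of all unigenes with one. At an unadjusted *p* under 0.05 there were 38, against 15.5% of all unigenes tested. Because the rule used these counts and dropped the unigenes parted by fertility, nothing is read from these numbers. The log2 fold change of sterile over fertile was positive in 98 and negative in 102 members, with a median of -0.02, against 0.01 over all unigenes tested, and ran from -5.11 to 5.64. The extreme at 5.64 was Contig26546, with an adjusted *p* of 0.0506 from edgeR. With a sterile library left out, edgeR called 6 members without S1 (0.141% of all unigenes), 3 without S4 (0.0914%) and 7 without S5 (0.241%). With a fertile library left out, it called 19 without F1 (0.259%), 7 without F2 (0.108%) and 6 without F3 (0.192%). Of these 48 calls, 47 fell on members whose gap parts sterile from fertile once that library is gone. This follows from the selection by wide gaps, and nothing is read from it.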

How the data were processed

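Gonads of 3 sterile and 3 fertile fish were sequenced. The authors filtered the reads, assembled each library with Trinity, merged the contigs with CAP3, mapped with BWA (0.7.8-r455 in the processing notes) and deposited a table of raw counts. Picard is the counter in the methods and HTSeq in the notes. The members and lists were chosen with earlier results of these data known.

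CPM was computed from the deposited counts by column total in Python 3.11.15 with numpy 2.4.6 and pandas 2.3.3, with the limits given in the text. The sterile against fertile fit used all 6 libraries in R 4.3.3 with edgeR 4.0.16 (quasi-likelihood test by glmQLFit and glmQLFTest after TMM and filterByExpr with its defaults, with Benjamini-Hochberg adjustment over 35787 unigenes) and was tested on simulated data. DESeq2 1.42.0 and limma-voom (limma 3.58.1) were alternatives. The *p*-values measure only the spread between these libraries. Precision was limited by total counts of 25024469 to 35719683 per library.

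Named unigenes were the 2 with the widest gap, for each of the 5 commonest partitions the widest gap in each direction, and the 2 on each side of the limit. Others were named after their values were seen. The marker lists take symbols from the study's own list, which was selected on these fish. Figures were drawn with matplotlib 3.10.9.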

Additional observations from a re-analysis of the deposited data

How the results depend on the processing

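Alternatives were another pseudocount, CPM minimum, scaling, number of members, treatment of the study's list or smallest side, and each library left out, while counting linked members once and a gap over 2-fold were added after seeing the data. Of 20 alternatives, 15 retained the 200 members within 1.5 times. The others retained 100 with 100 members taken, 113 with sides of 1 library allowed, 128 without F2, 129 without F3 and 130 without F1. With a sterile library left out, 146 to 158 were retained, which is within that limit. The partition commonest among the members held 23 of them. With the members chosen anew, it held 12 with 100 members taken and 14 with sides of 1 library. What remained of it with a library left out held 29 to 52. The count of members with no count on the low side was 0, and 1 with sides of 1 library. S4 and S5 shared a side in 93 members, in 46 of 100, in 193 of 400 and in 61 to 91 with a library left out. edgeR called 49 unigenes, with 79 without a filter on low counts, 324 in DESeq2, 24 in limma-voom and 34 to 97 with a library left out (97 without F1, 89 without S5). Of the members it called 0, with 2 without the filter, 9 in DESeq2 and 3 to 19 with a library left out. Smaller sets and merged partitions follow from how these alternatives are built, and for the test counts the cause was not tested. No paired analysis was possible because neither the labels nor the paper pairs sterile with fertile fish. Depth limits the members with 10 counts or fewer on the low side, where counting error is large.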

Other observations

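Some split unigenes varied as much within a side as across the gap. Contig25170 had 52.1 CPM in S5 and 52.2 CPM in F3, against 23.2 and 22.5 CPM in S1 and S4 and 9.84 and 0.758 CPM in F1 and F2, so its levels formed more than a high and a low set. It is 1 of the 20 members whose gap was narrower than the spread on a side, and it was chosen here after its values were seen.

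Mirrored neighbours were also found outside the members, in a list made after seeing the data. Contig9543 was high in S4, F1 and F3, and its neighbour Contig9542, whose gap was too narrow for the selection, was high in S1, S5 and F2. Their sum ranged 1.31-fold over the libraries, against 18.7-fold for Contig9543 and 1.95-fold for Contig9542. The sum was not always even, since that of Contig26546 and Contig26548 ranged 4.44-fold and that of Contig11863 and Contig11861 6.18-fold. No test was run on these pairs.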
